A study of Mus musculus with 11 samples.

Results

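The Myc, Max and Mxd network was followed through 10 genes of the deposited read count table, which lists 22369 mouse genes: Myc, Mycn, Mycl, Max, Mxd3, Mxd4, Mxi1, Mnt, Mga and Mlx. They were taken by name, with Ensembl IDs matched to gene symbols, and all 10 were found and passed the filter of a mean of 1 CPM (counts scaled to library size). The measurements are RNA-seq libraries from 11 clonal lines of mouse embryonic stem cells, numbered 16 to 26, with 1 library per clone. All clones descend from the line EBRTcH3, which expresses a tetracycline-controlled transactivator from the ROSA26 promoter, and all carry piggyBac reporters, each with a barcode and the mouse PGK promoter, at random sites. Each was picked as a single clone after sorting for high eGFP, so every line is 1 clone with its own insertions. All were kept in medium conditioned by BRL cells with leukemia inhibitory factor (LIF), the MEK inhibitor PD0325901 and the GSK-3 inhibitor CHIR99021. No treatment or genotype separates the clones, so the comparisons are between clones. With 1 library each, a clone's own state and variation of its library cannot be told apart, nor can fewer cells of a type and less RNA per cell.

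Proteins of this network bind DNA as pairs through a basic helix-loop-helix leucine zipper, with the E-box CACGTG as preferred site. Max is the shared partner. Pairs of Max with Myc, Mycn or Mycl activate growth genes, while pairs with the Mxd proteins (Mxi1 is one of them) or with Mnt recruit Sin3 co-repressors to the same sites. Mga, a very large protein, joins Max in a Polycomb complex, PRC1.6, that keeps germline genes silent in embryonic stem cells. Mlx pairs with the nutrient-sensing Mondo proteins and with some Mxd proteins. In naive medium, LIF acts on Myc through STAT3, and GSK-3 normally marks the Myc protein for destruction, a step that the RNA measured here does not show.

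The libraries held 10846005 to 16868500 counts in genes, and 3 counts, the floor of detection, corresponded to 0.173 to 0.284 CPM. Among the members, single counts ran from 23 reads (Mxd4, clone 17) to 13659 (Mga, clone 23). All 8 embryonic stem cell markers examined were high, with a summed level of 6725 to 8805 CPM. Summed markers of primitive endoderm (2.70 to 8.57 CPM), trophoblast (3.22 to 15.9), fibroblasts (3.42 to 9.07), neural cells (1.62 to 12.6), blood (3.12 to 9.23), primed epiblast (0.378 to 2.17) and liver (0 to 0.340) were low. Clones 20 and 23 were the most alike pair of libraries, with a chi-square per degree of freedom of 5.45 over 10939 genes against at least 16.4 for any other pair. They too differed by more than sampling noise and were kept as separate clones.

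Levels of the 10 members were compared with each other per kb, of exon length unless stated. Target and cofactor genes named later were ranked by CPM, which is not adjusted for length. Mycn had the highest level of the 3 Myc genes in 11 of 11 clones per kb of exon length and in 10 of 11 per kb of coding length, where Mycl led in clone 16. Mycn, which encodes N-Myc (chr12:12936093-12941914, minus strand, GRCm38), stood at 93.4 ± 25.8 CPM (SD, n = 11), from 54.3 in clone 24 through a median of 93.6 to 149 in clone 19. Clones 19 and 22 (123 CPM) lay above the others, and clone 24 below all of them. Per kb, Mycn made up 69.1 ± 9.87% of the summed Myc, Mycn and Mycl level, with a lowest share of 47.4% in clone 16. In the other clones the share was 62.4 to 82.5%. Mycn did not pass the test for variable genes, edgeR's goodness-of-fit against the dispersion of genes of like abundance (Benjamini-Hochberg adjusted p = 0.118). Its level in clone 19 against the other 10 (54.3 to 123 CPM) differed by 0.76 ± 0.28 on the log2 scale (SE; edgeR quasi-likelihood test, adjusted p = 0.625). In clone 24 it differed by -0.84 ± 0.34 (adjusted p = 0.718, the same edgeR test).

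Myc, which encodes c-Myc (chr15:61985391-61990374, plus strand, GRCm38), was low and uneven. It stood at 15.7 ± 6.78 CPM (SD, n = 11), from 5.39 in clone 26 through a median of 14.6 to 27.4 in clone 18, a 5.09-fold range. Clones 26, 19 (8.37), 25 (10.1) and 24 (10.4) formed the low end, and clones 18, 21 (22.7), 16 (20.2), 17 and 20 (both 19.6) the high end, with clones 22 and 23 between. Counts behind these levels were 77 to 396 reads, so the gap between the ends exceeded counting error. Myc passed the test for variable genes (edgeR goodness-of-fit, adjusted p = 0.0180). The call was lost without clone 18 (adjusted p = 0.143) and without clone 26 (adjusted p = 0.246), the ends of the range. No single clone passed against the other 10: in clone 26 the log2 fold change was -1.63 ± 0.61 (SE; adjusted p = 0.646 by edgeR's quasi-likelihood test).

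Mycl, which encodes L-Myc (chr4:122995652-123002485, plus strand, GRCm38), was set apart by clone 16. It stood at 115 CPM there (1219 reads), against 19.6 (clone 24) to 38.1 (clone 17) in the other 10, whose mean was 27.9 ± 5.24 CPM (SD, n = 10). That is 4.13 times the mean of the others, with no overlap. The log2 fold change was 2.05 ± 0.22 (SE), and 1.99 to 2.10 with any 1 of the other clones left out. The high level was known when Mycl was chosen, so it is a description here. Without clone 16 the spread of Mycl was that of other genes of its abundance (edgeR goodness-of-fit, adjusted p = 1). In clone 16 Mycl made up 42.2% of the summed Myc gene level per kb, against 11.2 to 20.7% elsewhere. Per kb of coding length its share there was 55.6%, above the 36.5% of Mycn, against 17.8 to 30.9% in the other clones. Neither Myc (20.2 CPM) nor Mycn (95.1) was at an extreme in that clone, and Myc and Mycn together stood at 41.4 CPM per kb in clone 16, within the 23.2 to 56.2 of the others. Summed markers of trophoblast (12.7 CPM) and fibroblasts (6.62) in clone 16 lay within the ranges of the other clones. Clone 16 had the highest sum of embryonic stem cell markers (8805 CPM) and the lowest sums of blood (3.12) and primed epiblast markers (0.378). The primed epiblast sum lies near the floor of 3 counts, 0.284 CPM in that library, so nothing is read from it. The part of the marker differences in the Mycl level was not tested.

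**Figure D1:**
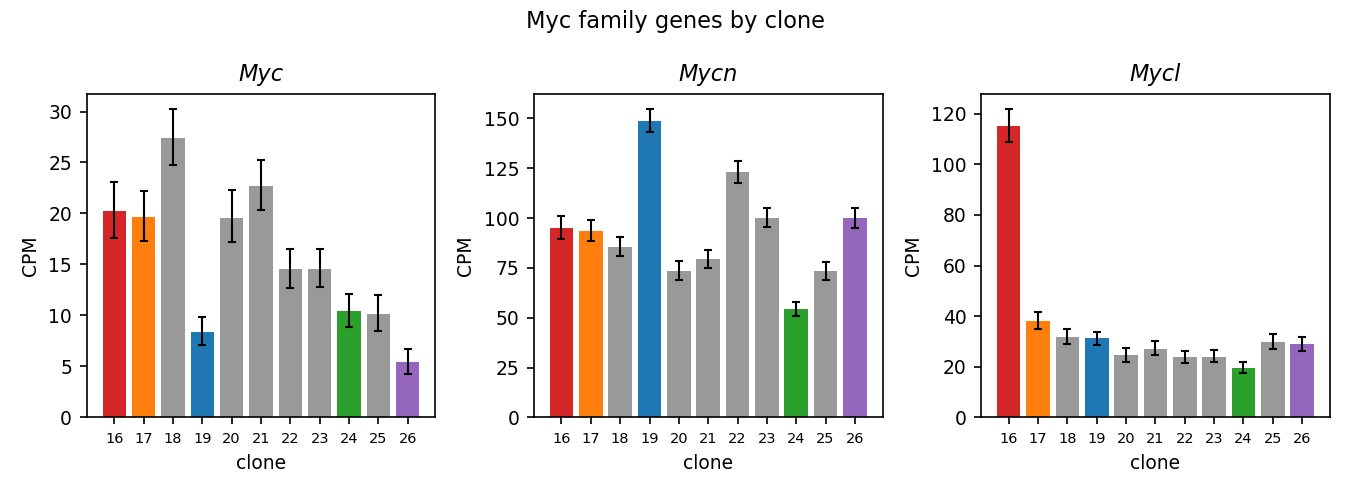
Bars give the CPM of Myc, Mycn and Mycl in each of the 11 clones, each panel on its own linear axis from 0. Lines are exact Poisson intervals, which cover counting error only. Mycl stands at 115 CPM in clone 16 and at most 38.1 elsewhere, and Myc is lowest in clones 26 and 19.

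Max, the shared partner, stood at 79.8 ± 13.2 CPM (SD, n = 11), from 64.4 in clone 20 through a median of 75.5 to 104 in clone 26. Clones 25 (101) and 26 were the highest and the other 9 lay at or below 87.5. Max was not variable (edgeR goodness-of-fit, adjusted p = 1).

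Among the antagonists, Mga and Mnt carried most of the signal and the Mxd genes little. Mga had the highest level, 751 ± 77.5 CPM (SD, n = 11), from 571 in clone 19 through a median of 743 to 858 in clone 21. Clone 19 lay apart from the others, which stood at 699.9 CPM or more. Mnt, a broadly expressed repressor that counters Myc, stood at 143 ± 18.9 CPM, from 112 in clone 22 to 181 in clone 26. In clone 26 Mnt differed from the other 10 (112 to 167 CPM) by 0.39 ± 0.16 on the log2 scale (SE; adjusted p = 0.737, edgeR quasi-likelihood test). Mga had a coefficient of variation of 10.3% and Mnt of 13.2%, against a median of 17.9% over all 12479 tested genes. That median is not matched for abundance. The dispersion trend at their own abundance corresponds to 16.3% for Mga and 17.1% for Mnt.

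The Mxd genes, which in many tissues come on as cells leave the cycle, were low. Mxi1 stood at 18.6 ± 5.06 CPM (SD, n = 11), with clone 17 at 31.7 and the others at 14.1 to 21.8. Mxd3, the Mxd gene tied to dividing cells, stood at 6.37 ± 1.04 CPM (4.93 to 8.10). Mxd4 was at 2.69 ± 0.608 CPM (1.83 to 3.72). Mxd1, which is outside the 10, was at 14.4 ± 3.46 CPM (9.46 to 19.5). Per kb, Mxd3, Mxd4 and Mxi1 together made up 8.90 ± 0.677% of the 5 antagonists, and Mga and Mnt the rest, with Mga at 57.7 ± 4.39% and Mnt at 33.4 ± 4.27%. Per kb of coding length the 3 Mxd genes made up 18.1 ± 1.67%, Mga 44.96 ± 4.51% and Mnt 36.95 ± 3.93%.

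Mlx, the partner of the Mondo proteins, stood at 24.1 ± 2.84 CPM (SD, n = 11), from 19.7 in clone 21 through a median of 24.7 to 28.2 in clone 16. Its coefficient of variation was 11.8%.

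**Figure D2:**
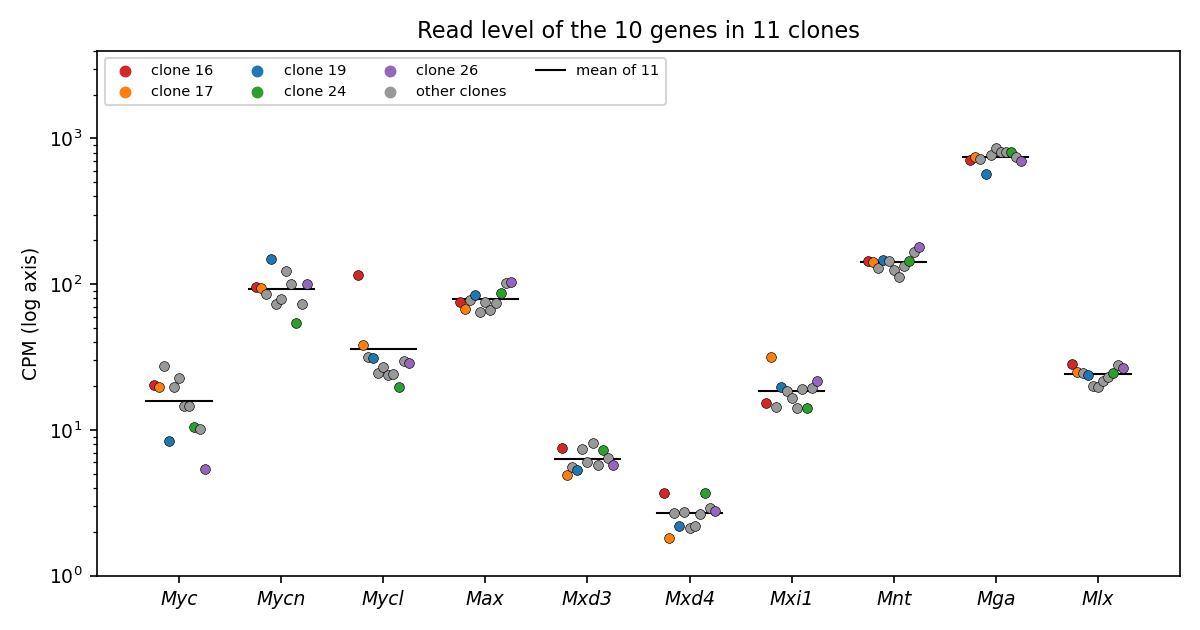
Each point is 1 clone, with CPM on a log axis, and lines mark the mean of 11. Mycl in clone 16, Mxi1 in clone 17 and the low Myc levels of clones 26 and 19 stand off from tight groups such as Mga, Mnt and Mlx.

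The order of the 10 genes depended on the length used. Per kb of exon length Mga led with 53.9 ± 5.57 CPM per kb (SD, n = 11), followed by Max with 40.7 ± 6.73, Mycn with 33.3 ± 9.19 and Mnt with 31.1 ± 4.12. Mlx (12.1 ± 1.43), Mycl (9.39 ± 7.03), Myc (5.79 ± 2.49), Mxd3 (4.80 ± 0.785), Mxi1 (2.80 ± 0.761) and Mxd4 (0.692 ± 0.157) came next. Of the 9 steps in that order, only those from Mnt to Mlx and from Mxi1 to Mxd4 separated the genes without overlap between clones. Myc and Mxd3 kept their order in 6 of 11 clones, and Mycn and Mnt in 7. Per kb of coding length Max led with 166 ± 27.5 CPM per kb, followed by Mga (82.3 ± 8.495), Mnt (67.7 ± 8.97) and Mycn (67.4 ± 18.6). On that scale Mycl (32.4 ± 24.3) stood above Mlx (26.99 ± 3.18), and Mxi1 (18.5 ± 5.04) above Myc (11.5 ± 4.98).

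Per kb of exon length, summed transcripts of the antagonists exceeded those of the activators in all 11 clones. Myc, Mycn and Mycl together stood at 48.5 ± 12.1 CPM per kb (SD, n = 11), and Mxd3, Mxd4, Mxi1, Mnt and Mga at 93.3 ± 5.47. The log2 ratio of activators to antagonists was -0.98 ± 0.43, from -1.80 in clone 24 to -0.32 in clone 19, with clone 16 at -0.35. The activator side varied more: it ranged from 28.3 in clone 24 to 71.6 in clone 16, while the antagonist side stayed between 80.4 in clone 19 and 98.4 in clone 24. Clone 19 had the highest Mycn and the lowest Mga level. The sign rests on Mga, which acts in a separate complex. Without Mga the mean log2 ratio was 0.27 ± 0.43, with 4 of 11 clones below 0 (clones 20, 24, 25 and 26). Per kb of coding length, with Mga kept, 10 of 11 clones were below 0 and clone 16 was at 0.06. RNA levels per kb are not protein levels, and the ratio was given no test because its members were chosen.

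**Figure D3:**
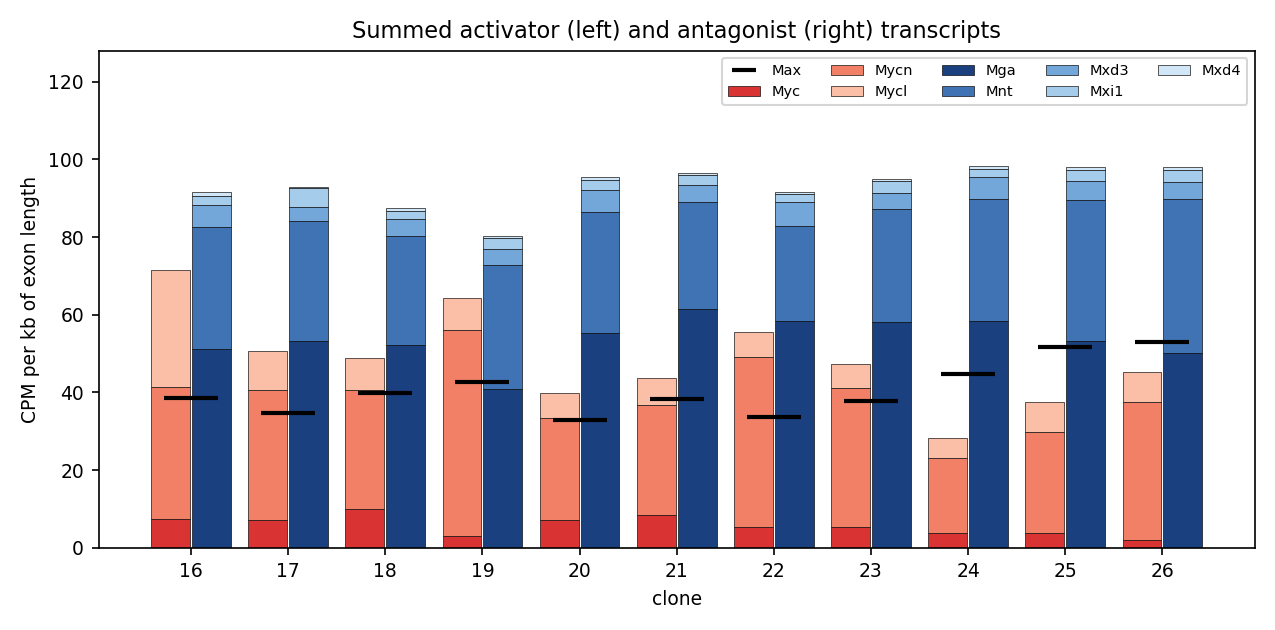
For each clone the left bar stacks Myc, Mycn and Mycl and the right bar stacks the antagonists, in CPM per kb of exon length, with Max as a black line. The right bars stay between 80.4 and 98.4, while the left bars run from 28.3 in clone 24 to 71.6 in clone 16.

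Of the 10 members, 2 (Myc and Mycl) passed the test for variable genes, against 7.68% of the 12479 tested genes. At an unadjusted p under 0.05 there were 3, with Mycn added, against 13.1% of all genes. With the DESeq2 dispersion trend 2 passed, against 8.26% of all genes. Mycl lost its edgeR call without clone 16, and its level there was known when the genes were chosen. For that reason nothing is read from these counts. The 7 members other than Myc, Mycn and Mycl had an adjusted p of 1 (edgeR goodness-of-fit). The median SD of log2(CPM + 1) over the 10 was 0.23, against 0.24 over all tested genes, which were not matched for abundance. Of the 110 pairs of member and clone, 1 passed against the other 10 clones in the edgeR quasi-likelihood test, Mycl in clone 16, against 0.213% of all pairs. That level was known when the genes were chosen, so nothing is read from this count. In that clone 0.264% of tested genes passed in either direction and 0.208% as higher. At an unadjusted p under 0.05 there were 7 of the 110, against 5.92% of all pairs. With the DESeq2 Wald test 2 passed, against 1.05% of all pairs: Mga in clone 19, at -0.43 ± 0.12 (log2, SE), was added with an adjusted p of 0.0425. By edgeR its adjusted p was 0.386.

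Some clones differ over most genes of a chromosome, so each member was set beside its neighbours. For each gene the 20 nearest expressed genes on either side were taken, with log2 deviations from the median clone. In 109 of 110 pairs of member and clone the neighbours' median lay between -0.09 and 0.08. The exception was Mxi1 on chromosome 19 in clone 17. It deviated by 0.75, its 40 neighbours by a median of 0.46 and all 359 expressed genes of the chromosome by 0.54. Mxi1 therefore stood 0.29 above the median of its neighbours, of which 8 deviated at least as much. Its level in that clone did not pass against the others (log2 fold change 0.87 ± 0.22, SE; edgeR quasi-likelihood test, adjusted p = 0.227).

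In clone 16 Mycl, on chromosome 4, deviated by 1.96 with neighbours at a median of -0.01, and the adjacent expressed genes Cap1 and Trit1 deviated by 0.06 and 0.13. Only 1 of the 40 neighbours deviated more in that clone, Cited4, named here after its values were seen. Cited4 stood at 13.1 CPM in clone 16 but reached 27.1 in another clone. Myc lies on chromosome 15, whose expressed genes had a median of 0.32, 0.25, 0.18 and 0.33 in clones 16 to 19. Its own 40 neighbours were at -0.02 to 0.01 in these clones. In clone 26 Myc deviated by -1.28 with neighbours at -0.00, and it was lower than all 40. Mycn on chromosome 12 deviated by 0.66 in clone 19 and -0.77 in clone 24, with neighbours at 0.03 and -0.00.

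**Figure D4:**
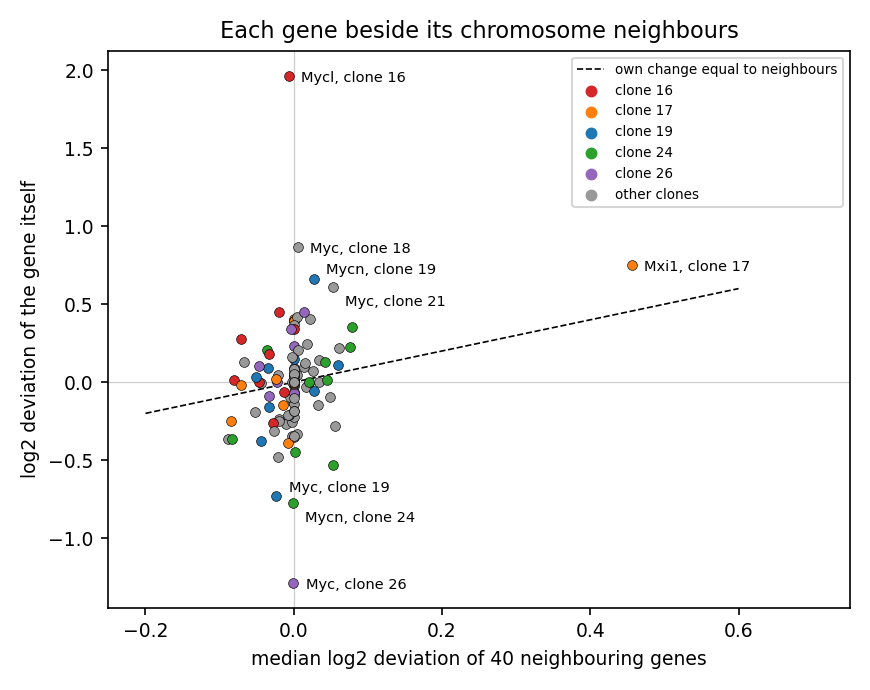
Each point is 1 of 110 pairs of gene and clone: the gene's own log2 deviation from the median clone against the median deviation of its 40 neighbours. Mxi1 in clone 17 is the point displaced to the right, while Mycl in clone 16 (1.96) and Myc in clone 26 (-1.28) move with neighbours near 0.

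The genes whose pattern over the 11 clones was most like each Myc gene were ranked by Pearson's r of log2(CPM + 1) among 10353 genes, as a description without test. For Myc they were Mkrn1 (r = 0.96), which encodes a ubiquitin ligase, Rfx3 (0.94), a transcription factor gene of cilia, and Etv1 (0.93). Etv1, an ETS factor gene linked to MEK/ERK signalling, had its lowest level, 18.7 CPM, in clone 26 and its highest, 54.9, in clone 18, and passed the test for variable genes (edgeR goodness-of-fit, adjusted p = 0.0274). For Mycn they were Ptprj (0.90), Tusc3 (0.89) and Accs (0.88). For Mycl they included 2410004B18Rik (0.96) and Glmp (0.95), both on chromosome 3, which was higher as a whole in clone 16 (median deviation 0.56 over 463 genes). Of the 26 genes called higher in clone 16, 23 lie on chromosome 3 and 1, Mycl, on chromosome 4. Without clone 16 the genes most like Mycl were Plin3, Ptdss2 and Iqgap1 (0.94 to 0.95), so the first ranking rested on that clone.

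Relations among members were tested over 45 pairs and 6 relations to lists, with 100000 permutations and adjustment over all 51. The permutation p-values take the clones as independent, which was not tested, and clones 20 and 23 were more alike than any other pair. Of the 51, 1 passed by r and 0 by rho, and 8 had an unadjusted p under 0.05 for r. None of the 45 pairs of members passed. The strongest was Max with Mnt, both highest in clones 25 and 26: Pearson's r = 0.78 (permutation p = 0.00507, adjusted p = 0.129) and Spearman's rho = 0.74 (permutation p = 0.0128, adjusted p = 0.233). Without clones 25 and 26 r was 0.38. Leaving out extremes narrows the range, so this drop does not show how far the relation depends on those clones. Myc ran against Max, with r = -0.73 (permutation p = 0.0108, adjusted p = 0.166) and rho = -0.52 (permutation p = 0.107, adjusted p = 0.364). Without clones 18 and 26 its r was -0.70. Among the 3 Myc genes no pair passed: r was -0.19 for Myc with Mycn, 0.27 for Myc with Mycl and 0.21 for Mycn with Mycl (permutation p = 0.573, 0.428 and 0.484, adjusted p of 0.736 to 0.778). Their rho was -0.23, 0.32 and 0.15 (permutation p = 0.504, 0.342 and 0.676).

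The targets of the network come next, with promoters shown for members and targets that hold the E-box. RefSeq promoters (GRCm38.p6, 250 bases before to 50 after a start site) were matched for 9 of 10 members, all but Myc, and searched for CACGTG, which reads the same on both strands. Among the 9 members 4 held it: Max from 3 bases before the RefSeq start, Mlx from 40, Mnt from 123 and Mxd4 from 219. The RefSeq start of Max lies outside the gene as annotated by GENCODE, which on the minus strand begins at base 76962201. It was in 10 of 30 matched promoters of a list of Myc targets and in 10 of 15 of a list of germline genes, against 8.09% of 27025 genes with a promoter in the table and 12.0% of the tested genes among them. Both lists name genes already tied to Myc, Max or E-boxes, so these shares are no independent evidence, and a match is not a site in use. The stretches below run 5′ to 3′ from 150 bases before to 20 after the start, with E-boxes in capitals. Max, Mnt and Mlx stand for the members, and Mycl for the gene that is high in clone 16 and holds none in the bases searched. Cdk4 stands for the growth targets with 3 of its 4 E-boxes in view, and Sycp3 and Ddx4 for the germline targets. The Mycl window lies inside the gene as annotated, from base 122995652, so bases before that start were not searched.
Max (chr12:76962229-76962398, minus strand): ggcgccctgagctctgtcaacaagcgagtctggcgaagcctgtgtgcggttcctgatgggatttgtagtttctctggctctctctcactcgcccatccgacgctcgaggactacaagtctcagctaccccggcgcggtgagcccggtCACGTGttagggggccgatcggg
Mnt (chr11:74830774-74830943, plus strand): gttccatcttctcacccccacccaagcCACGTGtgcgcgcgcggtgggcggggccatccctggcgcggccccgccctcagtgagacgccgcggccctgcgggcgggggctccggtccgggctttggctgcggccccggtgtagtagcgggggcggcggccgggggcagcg
Mlx (chr11:101087140-101087309, plus strand): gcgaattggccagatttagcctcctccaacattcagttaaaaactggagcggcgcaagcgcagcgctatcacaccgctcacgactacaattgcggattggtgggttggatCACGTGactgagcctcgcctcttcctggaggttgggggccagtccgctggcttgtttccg
Mycl (chr4:122995781-122995950, plus strand): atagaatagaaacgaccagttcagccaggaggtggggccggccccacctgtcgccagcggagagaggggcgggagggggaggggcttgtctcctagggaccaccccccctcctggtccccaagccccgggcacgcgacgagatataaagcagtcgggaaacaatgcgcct
Cdk4 (chr10:127063385-127063554, plus strand): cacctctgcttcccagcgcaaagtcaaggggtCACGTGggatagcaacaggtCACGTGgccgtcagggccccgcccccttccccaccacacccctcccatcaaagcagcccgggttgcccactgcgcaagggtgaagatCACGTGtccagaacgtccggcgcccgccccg
Sycp3 (chr10:88459437-88459606, plus strand): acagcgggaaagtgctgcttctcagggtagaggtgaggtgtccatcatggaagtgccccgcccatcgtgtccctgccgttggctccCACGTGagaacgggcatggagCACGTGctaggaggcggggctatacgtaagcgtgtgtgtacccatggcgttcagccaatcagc
Ddx4 (chr13:112652291-112652460, minus strand): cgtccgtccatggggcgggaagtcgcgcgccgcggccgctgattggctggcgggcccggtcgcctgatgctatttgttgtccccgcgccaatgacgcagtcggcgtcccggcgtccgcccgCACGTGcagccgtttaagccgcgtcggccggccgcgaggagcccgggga

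Of 34 tested members of the list, 2 were variable (edgeR goodness-of-fit; 7.68% of all genes): Cad, an enzyme of pyrimidine synthesis (188 to 463 CPM), and Ldha, lactate dehydrogenase (233 to 686), both highest in clone 17. With the DESeq2 dispersion trend 3 were, against 8.26% of all tested genes. Both counts are near the shares over all genes. The nucleolar genes Ncl (2906 ± 379 CPM; SD, n = 11), Npm1 (1813 ± 233) and Nop58 (527 ± 74.6) led the list in level. Cdk4, whose promoter is shown above, stood at 523 ± 35.7 CPM. The median SD was 0.21 on the log2 scale, against 0.24 over all tested genes, which were not matched for abundance. In clone 16, with high Mycl, the list's mean log2 deviation from the median clone was -0.06, within the range of -0.20 (clone 21) to 0.19 (clone 26). Clone 26, with the lowest Myc level, had the highest mean. Over 11 clones Myc and this mean had r = -0.69 (permutation p = 0.0191, adjusted p = 0.195) and rho = -0.65 (permutation p = 0.0340, adjusted p = 0.248). Without clones 18 and 26, the ends of the Myc range, r was -0.38, and here too leaving out extremes narrows the range. For Mycn and Mycl r was 0.08 and -0.15 (permutation p = 0.825 and 0.604, adjusted p = 0.922 and 0.778), and rho 0.15 and -0.15 (permutation p = 0.655 and 0.652).

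Of 9 tested genes that Myc is known to repress, 4 were variable, against 7.68% of all tested genes. Cdkn1a, the cell cycle inhibitor p21, was lowest at 40.4 CPM in clone 18, which has the most Myc, and highest at 127 in clone 26, which has the least. Gadd45a, a stress gene, ran the other way between these clones, with 46.2 CPM in clone 18 and 16.7 in clone 26, and was highest in clone 16 (56.2). The imprinted inhibitor Cdkn1c was close in both (5.19 and 5.39 CPM) and ranged from 0.238 to 9.96 over all clones. Gadd45b had 11.01 CPM in clone 18, had 15.4 in clone 26, and was highest in clone 19 (32.9). Cdkn1b, the inhibitor p27, was the most abundant (102 ± 14.1 CPM; SD, n = 11) and was not variable (edgeR goodness-of-fit, adjusted p = 1).

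Germline genes include targets of Mga and Max in PRC1.6. Of 14 tested, 6 were variable, against 7.68% of all tested genes (7 with the DESeq2 dispersion trend, against 8.26%): the germ cell regulators Dazl (19.9 to 112 CPM) and Sohlh2 (10.01 to 79.6), the cohesin genes Stag3 (24.6 to 112) and Smc1b (5.29 to 63.3), Stk31 (15.2 to 49.9) and the meiosis gene Hormad1 (8.45 to 29.6). Sycp3, of the synaptonemal complex, stood at 27.8 CPM in clone 24 and had 1 call there. Ddx4, a germ cell helicase gene, was low at 7.87 ± 2.90 CPM (SD, n = 11). Clone 19, with the lowest Mga, had the lowest mean log2 deviation of the list, -0.36, and clones 21 and 22, with 858 and 813 CPM of Mga, the highest (0.32 and 0.37). Mga and this mean had r = 0.81 (permutation p = 0.00064, adjusted p = 0.0326) and rho = 0.83 (permutation p = 0.00262, adjusted p = 0.134). Without clones 19 and 21 r was 0.77 (exact permutation p = 0.0225, adjusted p = 0.229). With each clone left out in turn r stayed at 0.77 to 0.85, but the call was lost without clone 16, 19, 20, 21, 22, 23 or 26 (adjusted p of 0.0502 to 0.171). Max had r = -0.44 with the same mean (permutation p = 0.176, adjusted p = 0.548) and rho = -0.34 (permutation p = 0.313).

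**Figure D5:**
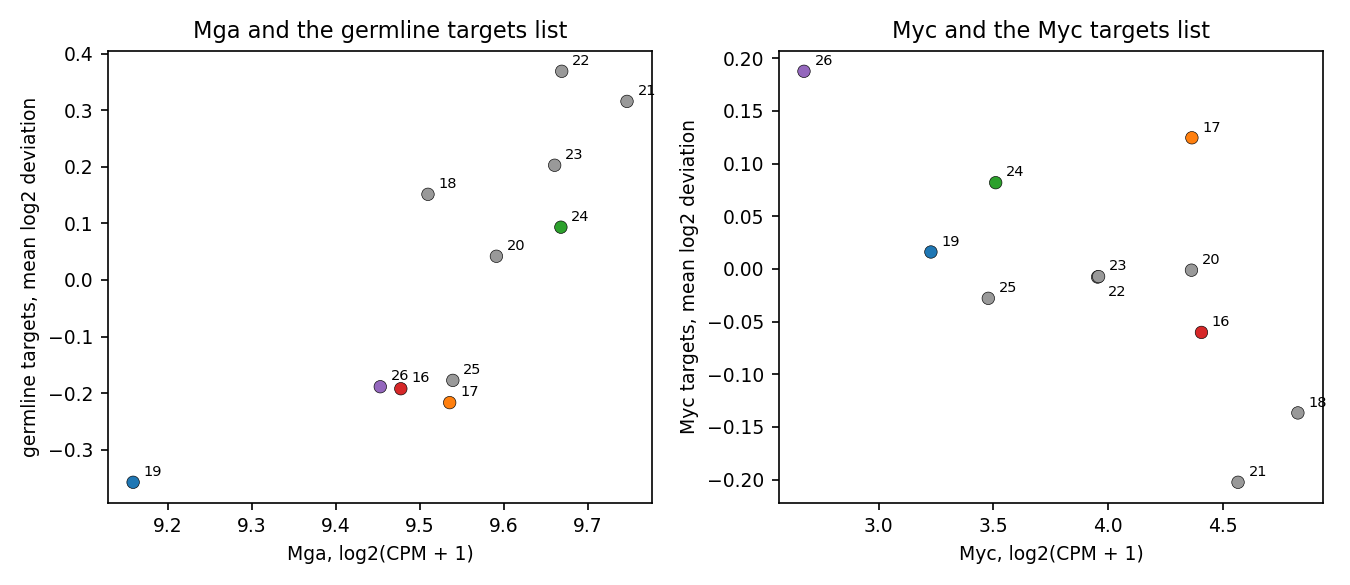
The left panel plots Mga, and the right panel Myc, as log2(CPM + 1) against the mean log2 deviation of the germline list and of the Myc target list. Points are clones, labelled by number: clone 19 is lowest on both axes on the left (r = 0.81). On the right (r = -0.69) clones 18 and 26 lie at opposite ends of the Myc axis, while clone 21 has the lowest target mean.

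Of 10 other genes of the PRC1.6 complex 1 was variable, near the 7.68% of all tested genes. Tfdp1, a partner of E2F factors, had 50.3 CPM in clone 17 and 175 in clone 22, its lowest and highest levels. The subunits Rybp (251 ± 21.7 CPM; SD, n = 11), Cbx1 (230 ± 26.3) and L3mbtl2 (219 ± 39.7) had the highest levels and were not variable (edgeR goodness-of-fit, adjusted p = 1).

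On the Mondo side, Mlxip, which encodes MondoA, stood at 49.6 ± 9.67 CPM (SD, n = 11) with 75.1 for clone 24 and 41.3 to 55.1 elsewhere (log2 fold change 0.67 ± 0.16, SE; edgeR quasi-likelihood test, adjusted p = 0.159). By the DESeq2 Wald test that pair passed (adjusted p = 0.0168). Mlxipl, which encodes the sugar sensor ChREBP, was variable: clones 19 (12.9 CPM) and 17 (11.9) stood above the rest, which had 1.47 to 5.40 (edgeR goodness-of-fit, adjusted p = 0.0115). Of their 5 tested targets 2 were variable (7.68% of all tested genes were), the arrestin gene Arrdc3 (88.8 CPM in clone 19 to 263 in clone 24) and G0s2 (4.69 in clone 17 to 28.5 in clone 18). Txnip, the most abundant (874 ± 161 CPM), and Arrdc4 (171 ± 42.6) were also lowest in clone 19 and did not pass (adjusted p = 0.773 and 0.0785). The list's mean log2 deviation was -0.73 in clone 19 and -0.66 in clone 17, against -0.09 to 0.34 elsewhere. Mlx itself had r = -0.17 with it (permutation p = 0.623, adjusted p = 0.778) and rho = -0.19 (permutation p = 0.576).

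Cofactors and regulators of the network came last. None of 13 co-activators (among them Hcfc1 at 586 CPM and Trrap at 387), 10 co-repressors (Ncor1, Rbbp4, Rbbp7), 18 regulators of Myc stability (Huwe1, Usp7, Ppp2ca) and 14 input genes (Ctnnb1 and Stat3 among them) was variable by edgeR's goodness-of-fit, nor with the DESeq2 dispersion trend, against 7.68% and 8.26% of all tested genes. At an unadjusted p under 0.05 there was 1, an input gene, against 13.1% of all genes. Median SDs on the log2 scale were 0.16, 0.18, 0.13 and 0.22, against 0.24 over all tested genes, which were not matched for abundance. Fbxw7, the ligase subunit that takes Myc for destruction after GSK-3 marks it, stood at 45.5 ± 7.63 CPM (SD, n = 11), and Gsk3b at 98.5 ± 11.02.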

How the data were processed

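The deposited table holds raw read counts per gene for 11 libraries, which the authors did not normalise. The tools, per the submitters' processing notes, were TopHat 1.4.0 with Bowtie 0.12.7, and the builds named there are mm9 and hg19, although every ID is from mouse. The table's own name gives protein-coding genes of Ensembl release 66. For the counting tool, strand and reads with several matches the sources used here give nothing. Symbols were found for 20777 IDs, and 0 lines named no gene.

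The counts were scaled by TMM in edgeR 4.0.16 (R 4.3.3), and 12479 genes that reached 1 CPM on average were tested. To find variable genes, a negative binomial model without groups was fitted, and its deviance was referred to chi-square with 10 degrees of freedom. Single clones were set against the remaining 10 with the quasi-likelihood test, and p-values were adjusted (Benjamini-Hochberg) over 137269 pairs at 0.05. The SE is the log2 fold change divided by the root of F and holds no spread within a clone. DESeq2 1.42.0 gave alternatives. Correlations used log2(CPM + 1) and two-sided permutation tests, exact for 9 clones, in Python 3.11.15. Exon lengths and gene order came from GENCODE vM21 (GRCm38), a later build than mm9. Count tests were also run on counts simulated from the dispersion trend of these data, and the correlation test on normal draws. Clones were independent in both, so these runs check neither that nor the trend.

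Named genes were the 10 members, in each list the 3 most abundant and up to 4 variable genes, and the 3 genes most like each Myc gene; a few that this rule names are not reported here. Stk31, Hormad1, Sycp3, Ddx4, Cdk4, Fbxw7, Gsk3b and Cited4 were added after their values were seen. The members and the 10 lists of 138 genes were chosen with earlier results of these data known. A list's mean is over its tested genes. Levels and shares per kb of coding length, other than the balance, were added after the data were seen.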

Additional observations from a re-analysis of the deposited data

How the results depend on the processing

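Of 368 values under alternatives, 330 were classed as unchanged, by direction and side of the threshold where a value has them. Counts of genes, such as 817 against 959 variable genes, have neither. Some values could not change: the balance is a ratio within each clone, so DESeq2 size factors left its mean at -0.98. With 1 library per clone, leaving out a clone removes it altogether. Over these left-out clones 1 to 2 of the 10 members were variable, 0 to 1 pairs of member and clone passed, 152 to 278 pairs of all genes passed (293 with all clones), 0 to 2 correlations passed (an alternative added after the data were seen), and the mean balance was -1.05 to -0.90. The DESeq2 Wald test called 1444 pairs of all genes and 2 of the members. The mean balance was -2.71 in plain CPM, not per length, 0.27 without Mga, which reversed its sign, -0.77 per kb of coding length (10 of 11 clones below 0, clone 16 at 0.06) and, added later, -1.03 with Mxd1 among the antagonists. Without Mycl clone 16 differed from the others by 0.16 instead of 0.69. No correlation passed without the 2 clones farthest from the median. The causes of these changes were not tested, except that removing Mga or Mycl removes its own level. No paired analysis was possible because the labels give 1 group. Depth limits Mxd4, with 23 to 59 reads, most.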
